A study of Arabidopsis thaliana with 6 samples.

Results

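In mature pollen of Arabidopsis thaliana, 20 nuclear genes with a clear signal in wild type read far lower, and at a similar level, in both of the insertion lines studied. They were picked from 13367 probe sets that stand for 1 nuclear gene each. The rule asked for a signal of at least 200 on both wild-type arrays, for a highest line array at no more than 25% of the lower wild-type array, and for a TF2 mean over TF1 mean between 0.5 and 2. It also set aside 7 named genes, LHCB4.1, LHCB4.2, PSAE-1, RCA, SBPASE, HPR and RALFL33. Because the rule used all 6 arrays, the members' signals and folds below are a description with no test.

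The groups were the TF2 line (stock SALK_018864), the TF1 line (stock SAIL_1168_C11) and wild-type Col-0 (stock N1092), with 2 ATH1 arrays each. All plants had the Col-0 background and grew indoors at 21 °C and 75% humidity, in compost or natural soil as the labels variously put it, and total RNA of mature pollen was measured as array signal on a linear scale. Each factor was represented by a single insertion line, and the labels give neither the gene hit nor the zygosity. They also do not say whether replicates came from separate plants, so the spread between replicates may be technical. The wild-type arrays are shared by both comparisons.

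Mature pollen is the male gametophyte, in which sperm cells lie inside a larger vegetative cell, the source of the pollen tube. Green plastids capture light with photosystem I and photosystem II, which combine proteins encoded in the plastid with proteins encoded in the nucleus, and fix carbon in the Calvin cycle. Mature Arabidopsis pollen has no green chloroplasts, and its best-known transcripts serve tube growth.

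Of the nuclear probe sets, 1311 read 200 or more on both wild-type arrays, and 36 of these (2.75%) met the 25% limit on all 4 line arrays. Among the 36, the TF2 mean was under 0.5 times the TF1 mean for 10 and over 2 times for 3. The other 23 met every threshold, and 3 of them (PSAE-1, RCA and HPR) belong to the names set aside. This left the 20 members. All 4 line arrays lay below both wild-type arrays for every member, as the rule requires, and for 27% of the 1311 probe sets.

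**Figure D1:**
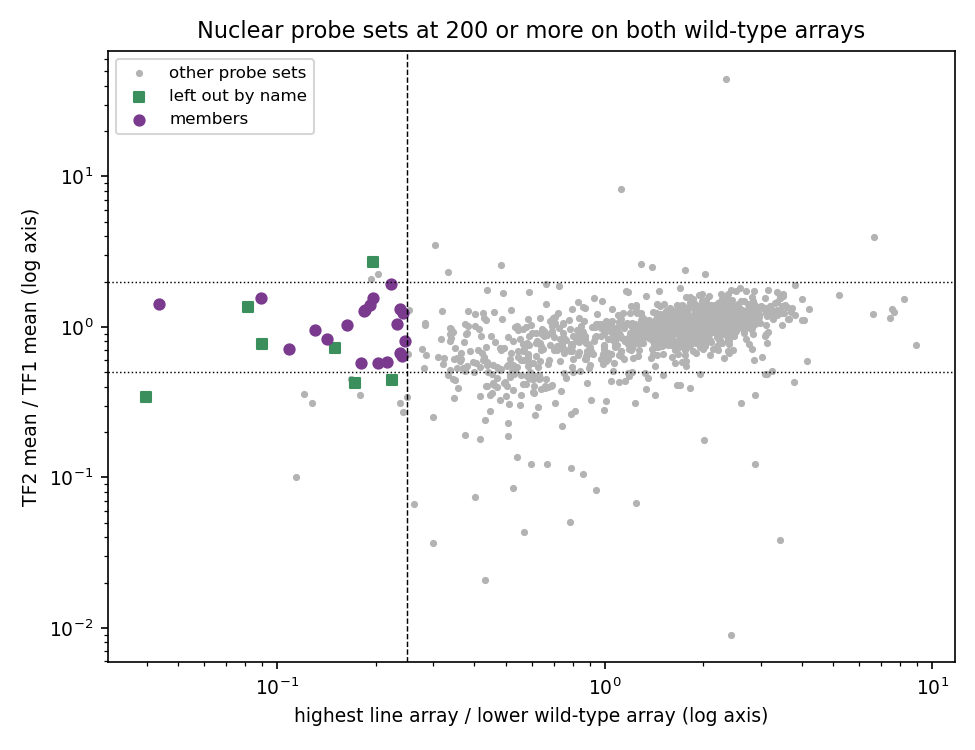
Each point is 1 of the 1311 nuclear probe sets with at least 200 on both wild-type arrays, by the highest line array over the lower wild-type array (log axis) and the TF2 mean over the TF1 mean (log axis). The dashed line marks the 25% limit and the dotted lines the ratios 0.5 and 2, and the 20 members are the purple points left of the dashed line and between the dotted ones. Green squares are genes set aside by name, some of which lie in the same area.

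Array facts bear on every value below. Median signal was 35.6 and 37.4 in TF2, 33.6 and 37.2 in TF1, and 38.1 and 43.0 in wild type, so every line array lay below both wild-type arrays. The 100 brightest probe sets held 36.7% and 39.6% of the signal in TF2, 36.1% and 38.9% in TF1, and 31.3% and 30.5% in wild type. Replicate arrays correlated at 0.908 in TF2, 0.917 in TF1 and 0.948 in wild type on the log2 scale over 11373 probe sets, which are not independent replicates. The 3′ control probe set for actin read 93.9 and 84.6 in TF2, 157 and 190.4 in TF1, and 624 and 636 in wild type. The one for GAPDH read 92.6 and 139 in TF2, 229.6 and 225 in TF1, and 794 and 719 in wild type. The 5′ probe set for actin went the other way in TF2, with 229 and 349 in TF2, 102 and 172 in TF1, and 104 and 84.8 in wild type. All line arrays lay below both wild-type arrays for 5 of the 6 actin and GAPDH control probe sets, the exception being the 5′ one for actin. The part of these controls, and of the difference between the 3′ and 5′ ends of actin, in the members' values was not tested.

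Of the members, 3 encode named parts or partners of the photosystems. PSBW encodes a small subunit of photosystem II. It read 92.6 and 109.8 in TF2 and 109.8 and 190.4 in TF1, against 1002 and 799 in wild type. The 4 line arrays stood far below the wild-type pair, and 1 TF1 array was the highest of the lines.

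PSB27 encodes a lumenal protein that takes part in the assembly and repair of photosystem II. It read 39.0 and 60.7 in TF2, 32.9 and 44.8 in TF1, and 354 and 329 in wild type. The arrays of the lines overlapped. PSAN encodes the lumenal subunit N of photosystem I, near the docking site of plastocyanin. Its signal was 52.0 and 51.2 in TF2, 62.2 and 62.9 in TF1, and 461 and 442 in wild type. Replicates of PSAN lay close together in every group, and the TF2 pair sat just under the TF1 pair.

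Carbon fixation was represented by PRK, which encodes phosphoribulokinase, the Calvin cycle enzyme that makes the substrate of Rubisco. PRK read 88.5 and 85.3 in TF2, 40.3 and 49.7 in TF1, and 476 and 398 in wild type. It was the member with the largest ratio of TF2 to TF1, at 1.93, and so stood closest to the upper limit of the rule. AT1G74470, listed in the gene table as geranylgeranyl reductase, belongs to the enzymes that make the phytyl tail of chlorophyll and tocopherol. Its values were 43.8 and 61.5 in TF2, 40.5 and 60.3 in TF1, and 265 and 328 in wild type. The lines could hardly be told apart here, with a TF2 to TF1 ratio of 1.04.

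AOR encodes an alkenal/one oxidoreductase, which detoxifies reactive carbonyls that arise from oxidised lipids. It had the lowest share of signal left of the 20 members: 8.98 and 7.07 in TF2 and 2.22 and 9.05 in TF1, against 252 and 208 in wild type. All 4 line values were under 10.3, the 25th percentile of all values on the arrays, so the size of its fold is poorly determined. ALDH11A3 encodes the non-phosphorylating glyceraldehyde-3-phosphate dehydrogenase, a cytosolic enzyme that yields NADPH. It stood at 55.4 and 64.6 in TF2, 77.7 and 72.2 in TF1, and 316 and 432 in wild type. Its highest line array was 24.6% of its lower wild-type array, the nearest of all members to the 25% limit.

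COR47 encodes a dehydrin, a hydrophilic protein that accumulates in cold and drought. Its values were 148 and 143 in TF2, 124 and 96.4 in TF1, and 623 and 648 in wild type. Its share of the wild-type signal was 22.9% in TF2, the highest of the members there, and 17.4% in TF1, where ALDH11A3 (20.1%) and AT1G71680 (18.9%) were higher, with both TF2 arrays above both TF1 arrays. ECS1 encodes a cell wall protein. It read 33.6 and 95.4 in TF2, 19.97 and 72.4 in TF1, and 496 and 731 in wild type. Replicate 1 was the lower array in each group, and the replicates of a line differed more from each other than the line means did.

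The remaining 11 members are known by locus only in the gene table used here, so no function is given for them. AT2G26500 read 98.7 and 76.1 in TF2, 133 and 112 in TF1, and 1325 and 1223 in wild type, which put the means 14.6-fold below wild type in TF2 and 10.4-fold below it in TF1. The TF2 pair lay under the TF1 pair.

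AT2G46600 gave 52.0 and 71.3 in TF2, 125 and 90.2 in TF1, and 693 and 776 in wild type. AT2G16750 gave 63.7 and 41.7 in TF2, 115 and 69.2 in TF1, and 595 and 567 in wild type. AT1G71680 gave 33.9 and 51.9 in TF2, 82.7 and 65.0 in TF1, and 402 and 380.4 in wild type. In these genes both TF2 arrays were below both TF1 arrays, with ratios of TF2 to TF1 between 0.572 and 0.581, the smallest among the members.

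AT2G45180 had nearly the same mean in both lines, with a TF2 to TF1 ratio of 1.03: 71.4 and 74.7 in TF2 and 74.7 and 66.7 in TF1, against 661 and 456 in wild type, where the replicates themselves differed by more than the lines did. AT1G65490 read 26.2 and 23.9 in TF2, 7.66 and 45.0 in TF1, and 448 and 344 in wild type. The means of the lines agree closely in AT1G65490, with a ratio of 0.953, although its TF1 replicates lay on either side of the TF2 pair.

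AT2G33850 had the largest ratio between line replicates of any member. It read 94.1 and 2.58 in TF2, 44.9 and 32.97 in TF1, and 393 and 389 in wild type, so its TF2 mean of 48.4 ± 64.7 (SD, n = 2) describes neither array. AT3G47070 read 40.5 and 36.2 in TF2, 50.8 and 8.28 in TF1, and 345 and 273 in wild type. AT1G78020 read 21.3 and 15.2 in TF2, 20.2 and 3.22 in TF1, and 303 and 238 in wild type. In both AT3G47070 and AT1G78020 the second TF1 array was the lowest of the 4 line arrays.

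The last of these loci, AT2G30930 and AT4G16980, stood near the wild-type floor of 200. AT2G30930 gave 37.4 and 13.2 in TF2, 23.6 and 55.2 in TF1, and 248 and 229 in wild type. AT4G16980 gave 3.83 and 41.7 in TF2, 10.3 and 19.2 in TF1, and 254 and 213 in wild type. The replicates of each line differed more, as a ratio, than the wild-type replicates did in both genes, and most in TF2 for AT4G16980. AT4G16980 is the 1 member with a second probe set, which the rule did not select, and that probe set read 5.97 and 34.2 in TF2, 8.08 and 2.80 in TF1, and 38.8 and 15.98 in wild type. The groups of the second probe set overlapped, so the probe sets of this gene disagree.

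**Figure D2:**
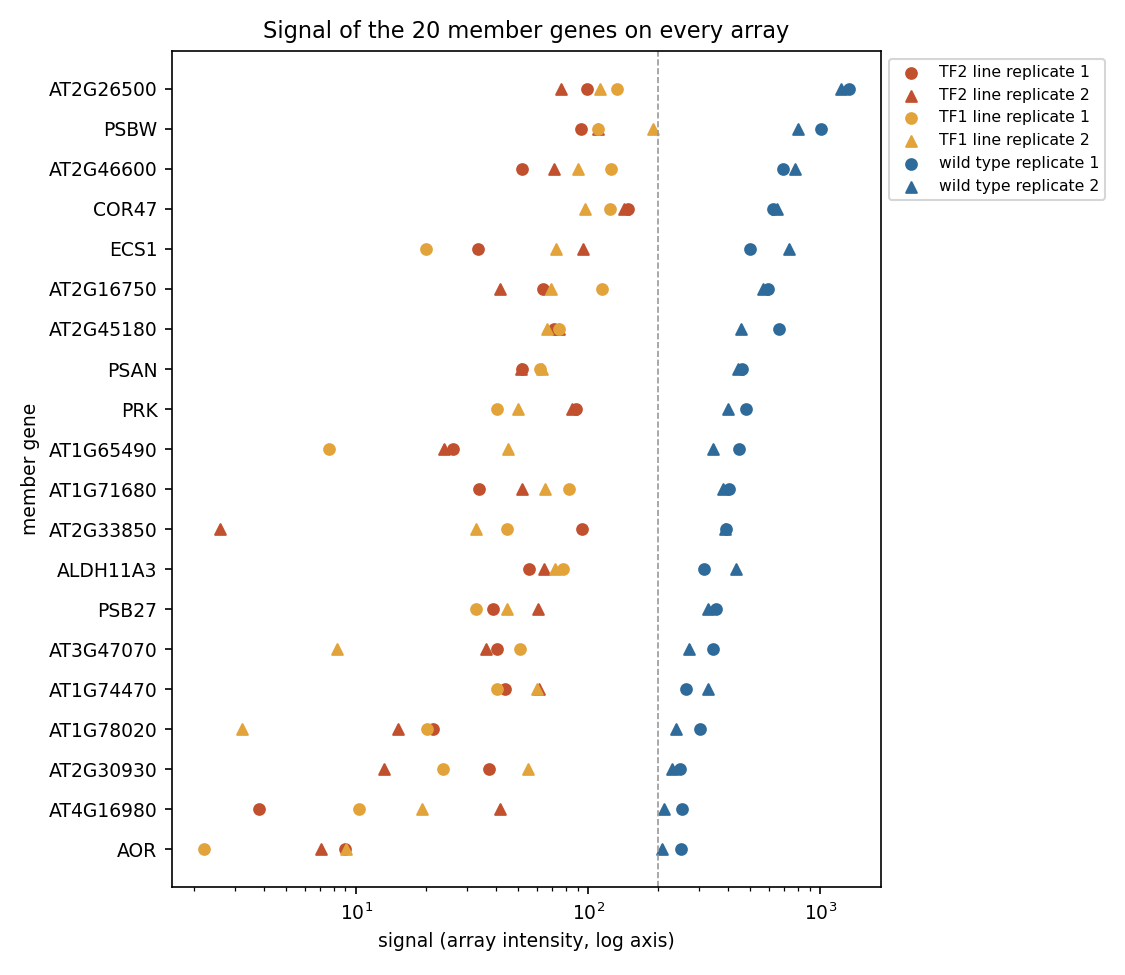
Signal of each member on every array (log axis), with members ordered from the highest wild-type mean at the top and circles and triangles for replicates 1 and 2. The dashed line marks 200; every wild-type point lies right of it and every TF2 and TF1 point left of it.

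Over the 20 members, wild-type means ran from 229.9 to 1274 with a median of 394. The means ran from 8.02 to 146 in TF2 (median 52.1) and from 5.64 to 150.1 in TF1 (median 48.3). As a share of wild type, the median member kept 11.1% of its signal in TF2 and 12.02% in TF1, with ranges of 3.49% to 22.9% and 2.45% to 20.1%. On the scale of log2(signal + 10.3), the difference from wild type was −2.98 in TF2 (median, range −3.72 to −2.05) and −2.82 in TF1 (range −3.94 to −2.15). The median over all 11373 probe sets tested was 0.05 in TF2 and −0.02 in TF1. Of these probe sets, limma called 30.8% in TF2 against wild type, 21.6% in TF1 against wild type, and 4.65% in TF2 against TF1 (3.8% lower and 0.853% higher in TF2), at an adjusted p below 0.05. Fewer cells of a type and less RNA per cell cannot be told apart in such bulk samples.

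Some signal was still read for the members in the lines, 2.97% to 20.1% of the wild-type mean over the 4 line arrays together. Of 80 line values, 10 were under 10.3, and they came from 6 members. The deposited table has no detection calls, so it does not show which line signals are background or whether any transcript was lost.

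The lines were alike only within wide limits. The ratio of the TF2 mean to the TF1 mean ran from 0.572 to 1.93 with a median of 1.04, and it was between 0.8 and 1.25 in 6 members. The TF2 mean was lower in 9 members and higher in 11. The arrays of the lines overlapped in 12 members. Both TF2 arrays were below both TF1 arrays in 6, against 30.7% of the 1311 probe sets, and above them in 2, against 27.2%. The rule set limits on this ratio, so nothing is read from these counts.

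**Figure D3:**
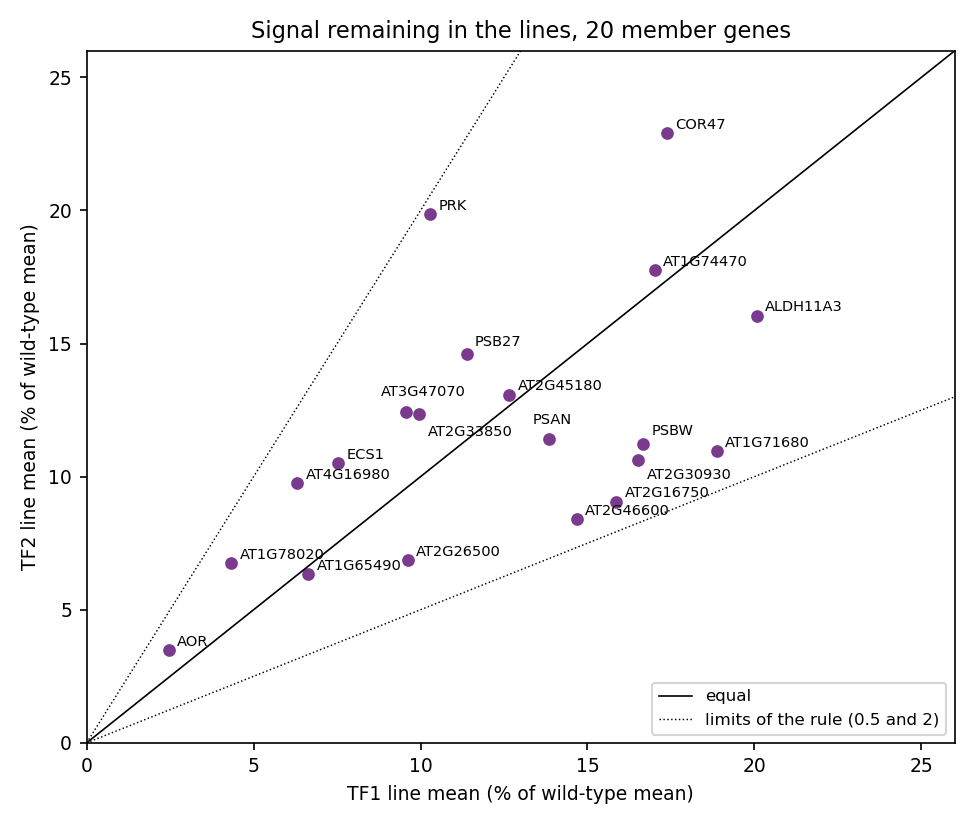
TF2 mean against TF1 mean of each member, both as a percent of the wild-type mean, with a solid line where they are equal and dotted lines at the ratios 0.5 and 2. AOR lies lowest, at 3.49% and 2.45%, and COR47 highest on the TF2 axis at 22.9%.

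The limits of the rule fall within a gradual range of values. Just inside the wild-type floor were AOR, AT4G16980 and AT2G30930, whose lower wild-type arrays read 208, 213 and 229. Just outside it were OSM34 at 189, AT2G41090 at 165 and AT5G45950 at 160.2. Just inside the 25% limit, the highest line array over the lower wild-type array was 0.246 for ALDH11A3, 0.242 for AT2G33850 and 0.241 for AT2G30930. Just outside it stood ATPC1 at 0.252, AT3G17800 at 0.254 and AT4G16190 at 0.276. At the low end of the TF2 to TF1 ratio, the members AT2G16750, AT2G46600 and AT1G71680 had 0.572, 0.572 and 0.581, and AT2G07741, AT1G09310 and AT4G15545 had 0.451, 0.358 and 0.352 outside it. At the high end, PRK had 1.93, AT1G78020 1.56 and AT4G16980 1.55, and AT5G38980 at 2.07 and AT2G05540 at 2.24 were outside.

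Membership held under all 13 alternative thresholds, scalings and left-out arrays for AT2G26500, AT2G45180 and PSAN. It held under 12 for PSB27 and under 6, the fewest, for AT4G16980 and AT2G30930. Some of the 13 could not drop a member by construction. These were the lower wild-type floor, the looser limit on the highest line array, and leaving out either wild-type array. The number of settings held includes them for every member, so it overstates how firmly membership was tested. After quantile normalization 15 genes met the rule, 12 of them members. After scaling each array to the same median 11 genes met it, 10 of them members.

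Most other tested genes of the same pathway were low on the same arrays, 5 of them set aside by name. The nuclear photosynthesis list held 66 genes, of which 11 had a probe set of their own, 3 of them the members PSBW, PSAN and PRK. Of the other 8, 7 fell in TF2 and 7 in TF1 (limma, Benjamini-Hochberg adjusted p below 0.05). Of the 8, 5 belong to the names set aside, which were chosen with their values known, and all 5 were called lower in both lines. The counts of 7 therefore cannot be weighed against the 16% and 9.64% of all probe sets tested that were called lower. The other 3, ATPC1, PSBY and LHCB4.3, had a median log2 change of −1.75 in TF2 and −1.97 in TF1, with 2 called lower in each line. The summed signal of these 3 was 25.9% of wild type in both lines. ATPC1, 1 of the 3, itself lay just outside the limit of the rule, with its highest line array over its lower wild-type array at 0.252. With the names set aside included, the median of the 8 was −3.16 in TF2 and −3.10 in TF1, and the summed signal was 433 and 673 in TF2, 556 and 519.6 in TF1, and 4775 and 4620.1 in wild type. None was at 0, and LHCB4.2 read 3.32 to 14.8 in the lines. The part of green tissue markers in the members' values was not tested.

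ATPC1 encodes the gamma subunit of the plastid ATP synthase. It averaged 82.1 ± 45.4 in TF2, 124 ± 10.3 in TF1 and 575 ± 71.9 in wild type (SD, n = 2 each). Its log2 change was −2.75 in TF2 (SE 0.32, limma adjusted p = 3.86e-05) and −2.11 in TF1 (SE 0.32, limma adjusted p = 0.000498), a call that was lost in TF1 without the intensity trend (adjusted p = 0.0525). PSBY, for a small photosystem II subunit and also named after its values were seen, fell by 1.75 in TF2 (limma adjusted p = 0.000525) and by 1.97 in TF1 (limma adjusted p = 0.000425). LHCB4.3, the 1 gene of the 8 that passed the test in neither line, averaged 75.3 ± 8.10 in TF2, 55.5 ± 22.6 in TF1 and 83.5 ± 47.2 in wild type. Its wild-type signal was under the floor of 200.

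Pathways of the other annotated members were thinly covered. The chlorophyll synthesis list, close to the role of AT1G74470, had 7 of its 17 genes on a probe set of their own. Of 3 tested, HEMB1, CHLM and GSA1, 0 passed the limma threshold in either line (at an unadjusted p below 0.05, 1 lower in TF2 and 0 in TF1), with signals of 26.8 to 128. HEME1, HEME2, PORB and CHLI2 were too dim to be tested. HEME2 read 10.3 and 3.42 in TF2, 3.68 and 2.63 in TF1, and 44.5 and 28.5 in wild type. In HEME1, PORB and CHLI2 the line arrays overlapped the wild-type ones. Beside COR47, the cold and drought list had COR15A, COR15B and LTI30, all too dim to be tested, with 2.16 to 44.8 over the 6 arrays. Of 2 antioxidant and metal-binding genes tested, SAPX, a plastid ascorbate peroxidase, was called lower in TF2 (−2.14, SE 0.73, limma adjusted p = 0.0434), a call lost under 8 of the 10 alternatives that tested it (adjusted p 0.0145 to 0.135). The metallothionein gene MT1C fell by 3.08 in TF1 (limma adjusted p = 5.78e-06) and stood at −0.13 in TF2 (limma adjusted p = 0.722), and it was higher in TF2 than in TF1 (2.95, limma adjusted p = 1.68e-05).

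Pollen's own markers went the other way. The vegetative cell list held 27 genes, of which 8 had a probe set of their own. All 8 were called higher in both lines, where 14.8% of probe sets tested were called higher in TF2 and 11.9% in TF1. Among the 6180 tested with 1 nuclear gene, 987 were called higher in TF2 and 783 in TF1. Wild-type means of the 8 ran from 345 for AGL104 to 7208 for TUB9, while these shares also cover dim probe sets. No share was taken among probe sets of like brightness, so the rise is not shown to be particular to the markers. The median log2 change of the 8 was 0.91 in TF2 and 0.80 in TF1. Their summed signal was 39957 and 36278 in TF2, 32422 and 30474 in TF1, and 18266 and 17029 in wild type. After quantile normalization 3 of the 8 were called higher in each line, and 1 of the 8 had a negative log2 difference in TF2. Without the intensity trend the calls were 3 in TF2 and 0 in TF1, and without wild type replicate 2 there were 5 in TF1. Of 3 sperm cell genes, MGH3, a male gamete histone H3, rose by 0.99 in TF2 (limma adjusted p = 0.000251) and by 1.03 in TF1 (limma adjusted p = 0.000379, or 0.0728 without the trend). The other sperm cell genes, TET11 and TET12, were called in neither line. The part of the vegetative cell markers in the members' values was not tested.

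The other lists had few measured genes. SWEET8, a sugar exporter expressed in the anther, fell by 2.33 in TF2 (limma adjusted p = 5.27e-06) and by 1.08 in TF1 (limma adjusted p = 0.00217; 0.072 without the trend), and the tapetum regulator AMS was not called. IVD, of the dark and sugar starvation list, fell in TF2 (−1.50, limma adjusted p = 0.0264, 0.00357 to 0.168 over the alternatives, 5 of which lost the call) as the 1 call among 3 genes tested. The photorespiration list had HPR alone. In limma 0 genes were called in either line among 1 clock gene, 2 glucosinolate genes and 2 petal, sepal and filament genes, and at an unadjusted p below 0.05 there were 1 glucosinolate gene (PYK10, higher in TF2) and 1 floral gene (DFR, higher in TF1). The aquaporin list had no gene with a probe set of its own.

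The next coding gene on each side of each member in chromosome order gave 40 neighbours, 0 of them members, and 20 had a probe set of their own. Of these 20, 15 had a wild-type mean under 200, so most were dimmer in wild type than the rule asked of members. Of 11 tested, 0 were called lower in either line (0 also at an unadjusted p below 0.05). In limma 4 were called higher in TF2 and 3 in TF1 (adjusted p below 0.05). Of all probe sets tested, 16% and 9.64% were called lower and 14.8% and 11.9% higher. Of the 6180 tested with 1 nuclear gene, as the neighbours have, 731 and 408 were called lower and 987 and 783 higher. AT1G20430, next to COR47, was not called but was dimmer on every line array than in wild type. Its log2 change was −0.98 in TF2 and −1.38 in TF1. The median log2 change of the 11 neighbours was 0.42 in TF2 and 0.20 in TF1. AT2G26490, next to AT2G26500, read 6936 and 5911 in TF2, 4943 and 5070.3 in TF1, and 2918 and 2679 in wild type. AT3G47080, next to AT3G47070, read 2885 and 2387 in TF2, 1348 and 1965 in TF1, and 881 and 823 in wild type. Both neighbours, named after their values were seen, were brighter on every line array than in wild type, while the member beside each was dimmer. The closest pair of members, PSBW and AT2G30930, had 37 coding genes between them.

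**Figure D4:**
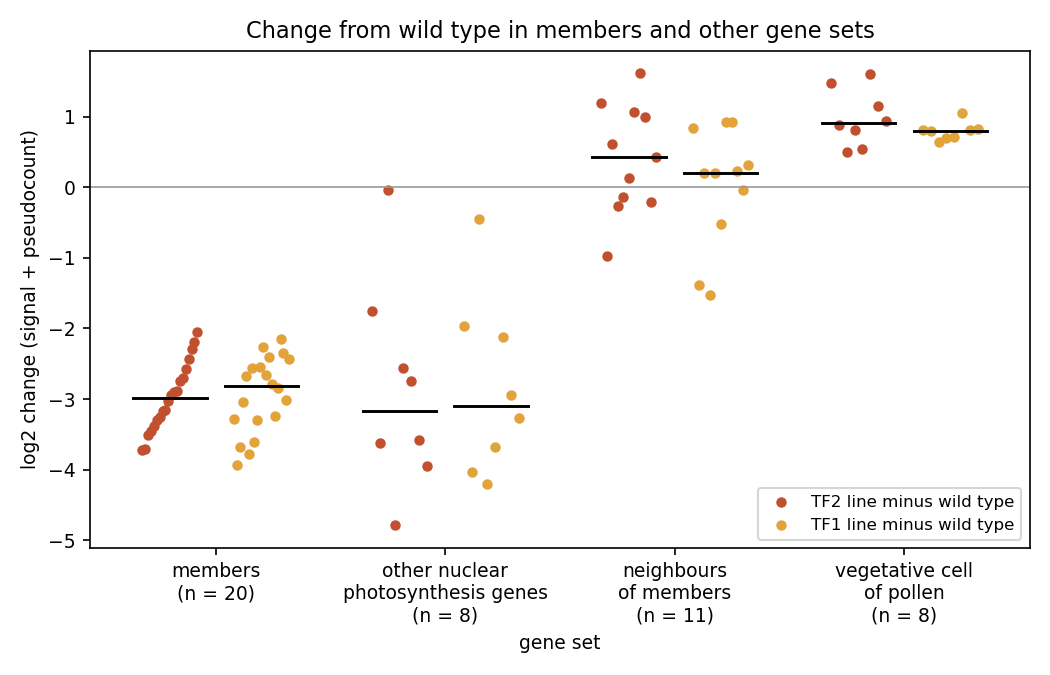
Log2 change from wild type, as log2(signal + 10.3), of the 20 members, 8 other nuclear photosynthesis genes (5 of them set aside by name), 11 tested neighbours of members and 8 vegetative cell genes, with TF2 left of TF1 and a bar at each median. Member medians are −2.98 and −2.82, those of the neighbours 0.42 and 0.20.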

How the data were processed

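The authors deposited 1 signal intensity per probe set and array on a linear scale. MAS5 and GCOS are named in the submitters' processing notes, with versions and settings not given in the sources used here. On every array the mean after trimming 2% at each end was 100.0, and this scaling was kept. The table had 22810 probe sets (64 of them controls) and 0 columns without a sample. The probe annotation gave 1 gene for 13513, several for 503 and none for 8730, and 13436 were matched to RefSeq genes (TAIR10.1), used for names and gene order only. Fits used log2(signal + 10.3), with the pseudocount at the 25th percentile of all values, on 11373 probe sets whose mean log2 value reached the median, 19 of the 20 members among them (AOR missed). The 6 arrays were fitted together in limma 3.58.1 (R 4.3.3; eBayes with trend), Benjamini-Hochberg adjusted, threshold 0.05, two-sided, and the script was tested on simulated data. An exact permutation test of 2 arrays against 2 cannot go below 0.333. The members and the 13 gene lists were chosen with earlier results of these data known. The naming rule allowed every member, the probe sets at the edge of each threshold, and up to 3 other called genes of each list by size of the TF2 change, and any other gene named was chosen after its values were seen. Promoter and protein sequences planned for description were not used here. The number of arrays limits the precision.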

Additional observations from a re-analysis of the deposited data

Results flagged for a closer look

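Among the genes of the lists, 4 had a called difference between the lines (limma, adjusted over all probe sets tested), which is a test of whether their difference from wild type is unequal. MT1C read 721 and 942 in TF2, 128 and 74.3 in TF1, and 968 and 839 in wild type. It was higher in TF2 than in TF1 by 2.95 log2 units (limma adjusted p = 1.68e-05), and the call held under all 12 alternatives (adjusted p up to 0.0324). SWEET8 read 134 and 102 in TF2, 289 and 297 in TF1, and 672 and 589 in wild type. Its difference between TF2 and TF1 was −1.25 (limma adjusted p = 0.0035), with the call lost without the intensity trend (0.0932). AGL65, a pollen MADS-box factor, was higher in TF2 than in TF1 by 0.68 (limma adjusted p = 0.0294, 0.0124 to 0.28 over the alternatives). AGL18, of the same family, was higher by 0.55 (limma adjusted p = 0.0454, 0.0357 to 0.361). The calls of AGL65 and AGL18 were lost under most alternatives. With 2 arrays a group, single outlying arrays were not looked for.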

How the results depend on the processing

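The count of members depended on the thresholds. It was 8 with a wild-type floor of 400, 29 with a floor of 100, 32 with a limit of 33.3% on the highest line array, 11 with a limit of 20%, 13 with TF2 over TF1 between 0.67 and 1.5, and 11 after scaling to equal medians. Leaving out 1 array in turn gave 18 to 25. The members' log2 changes ran from −5.34 to −1.92 over 480 recomputed values, and 50 of these moved by more than the replicate SD. Their negative sign follows from the rule, so nothing is read from it. Settings that alter only the filter, the trend or the block leave these values unchanged by construction. So does leaving out a TF1 array for a TF2 change, or a TF2 array for a TF1 change. The 480 values therefore include many that could not move. Probe sets called numbered 3506 for TF2 against wild type, 2453 for TF1 against wild type and 529 for TF2 against TF1. Without the intensity trend they were 2185, 456 and 175. Leaving out 1 array gave 2113 to 3543, 1266 to 2817 and 217 to 589. The lowest counts came without wild type replicate 2 in both comparisons with wild type, and without TF1 line replicate 2 between the lines. The causes were not tested. The median change of all probe sets tested was 0.14 in TF2 and 0.11 in TF1 after quantile normalization, and 0.16 and 0.14 after median centring, against 0.05 and −0.02 as deposited. The alternatives for the list counts and single list genes were chosen after seeing the data. The 0 calls of the clock, glucosinolate and floral lists rest on 1 or 2 genes each. MT1C in TF2 against wild type, not called, ran from −0.38 after quantile normalization to 0.063 without TF2 line replicate 1 (−0.32 without TF2 line replicate 2). Replicate numbers are shared by the groups, and deviations of same-numbered arrays correlated at 0.002 to 0.02. The labels do not say whether same-numbered arrays were handled together, and this was not tested. With a replicate block the counts were 3558, 2521 and 593. Line values under 10.3 limit the folds of AOR, AT4G16980, AT1G78020, AT1G65490, AT2G33850 and AT3G47070.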

Other observations

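By their locus names, 17 of the 20 members lie on chromosomes 1 and 2 (85%), against 42.3% of the 13367 probe sets with 1 nuclear gene and 40.4% of the 1311 with at least 200 on both wild-type arrays. Of 12 genes added when the limit on the highest line array is 33.3%, 4 lay on these chromosomes, as did 3 of 9 added with a wild-type floor of 100 and 8 of the 16 probe sets that met the 25% limit without being members. Chromosomes 1 to 5 held 9, 8, 1, 1 and 1 members, so the pair compared is the 2 with the most. Taking the fullest pair raises the share by itself. No test was made, since the members were chosen by their values.

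The members shared a summed signal of 1105 and 1127 in TF2, 1198 and 1225 in TF1, and 9911 and 9404 in wild type. That is 11.6% of wild type in TF2 and 12.5% in TF1. The 3 other nuclear photosynthesis genes tested that the rule did not set aside by name summed to 25.9% of wild type in both lines.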
